A study of Sus scrofa with 6 samples.

Results

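The SLC2A genes encode the facilitative sugar transporters of the GLUT family. All probe sets whose single gene symbol in the platform annotation starts with SLC2A were taken, which gave 10 probe sets of 8 genes among 23999 probe sets and 6765 genes on the array. The genes are SLC2A1, SLC2A2, SLC2A3, SLC2A4, SLC2A5, SLC2A8, SLC2A12 and SLC2A4RG. The last of these fell under the symbol rule although it encodes a regulator of SLC2A4 transcription and no transporter. SLC2A4 had 3 probe sets and each of the other 7 genes had 1. Of 13 porcine SLC2A transporter genes in RefSeq (assembly Sscrofa11.1), SLC2A6, SLC2A7, SLC2A9, SLC2A10, SLC2A11 and SLC2A13 carried no probe set with their symbol and were not analysed here.

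RNA of IPEC-1 cells, an epithelial line isolated from the small intestine of newborn piglets, was hybridized to 6 GeneChip Porcine Genome Arrays. In air–liquid interface (ALI) culture the cells on a porous membrane had a thin film of medium on the apical side, whereas in submerged culture (SMC) they were covered by a column of medium, and the medium of both groups was DMEM/F12 with insulin, transferrin, selenium and epidermal growth factor, from which the serum was withdrawn in steps. Each group held 3 arrays, replicates 1 to 3, at passages P109, P111 and P113, so that the replicates are passages of 1 line, and the p-values measure the spread between these arrays. The comparison asks how the culture at the air–liquid interface changes the transporters through which these cells take up sugar. Most markers of the labelled epithelium had high signals. All 14 epithelial markers had a probe set, 11 of them with a mean above the array median, while CDH17, an intestinal cadherin, and TJP1, of the tight junction, lay in the lowest 25% of the signals on every array. The mean log2 signal over the 14 epithelial markers was 10.26 to 10.36 on the ALI and 10.24 to 10.48 on the SMC arrays. Of the markers of absorptive enterocytes, the fatty acid binding proteins FABP1 and FABP2 lay in the lowest 25% on every array as well. EZR was among the highest signals, at percentiles 98.8 to 99.1 of the arrays. VIL1 stood at 41.6 to 55.0, ANPEP at 34.2 to 39.0 and DPP4 at 15.6 to 25.2. No probe set carried the symbol of the sugar-digesting enzymes SI, LCT, MGAM and TREH, which were not analysed here.

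GLUT proteins carry hexoses through the membrane down their concentration gradient, without the use of ions or ATP. They differ in the sugar they prefer, in their affinity and in the membrane they reside in. In the small intestine, the sodium-coupled transporter SGLT1 and the fructose transporter GLUT5 take up sugar from the lumen, and GLUT2 passes glucose, galactose and fructose on to the blood side. GLUT1 and GLUT3 serve the cells' own demand for glucose, and their genes are textbook targets of the hypoxia-inducible factor HIF-1.

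Of the 10 SLC2A probe sets, 4 had a lower signal in ALI cells at an adjusted p under 0.05 (limma, Benjamini-Hochberg over all 23999 probe sets), and none was higher. They stand for SLC2A3, SLC2A2, SLC2A12 and SLC2A5, which fell by 3.28-, 2.34-, 2.19- and 1.80-fold. Over the whole array, 1.23% of the probe sets passed the test as lower, 0.663% as higher and 1.90% in either direction. The log2 fold change was below 0 for 6 of the 10 probe sets, against 44.8% of all. SLC2A1, the most widely used of these transporters, was 1.55-fold lower without passing the test. The probe sets of SLC2A4, SLC2A8 and SLC2A4RG had log2 fold changes between -0.10 and 0.12. The median log2 fold change was -0.37 over the 10 probe sets and 0.02 over all probe sets. The gap in log2 signal between the 3′ and 5′ actin control probe sets was also wider on the ALI arrays (mean 2.93 against 2.32), and its part in these values was not tested.

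**Figure D1:**
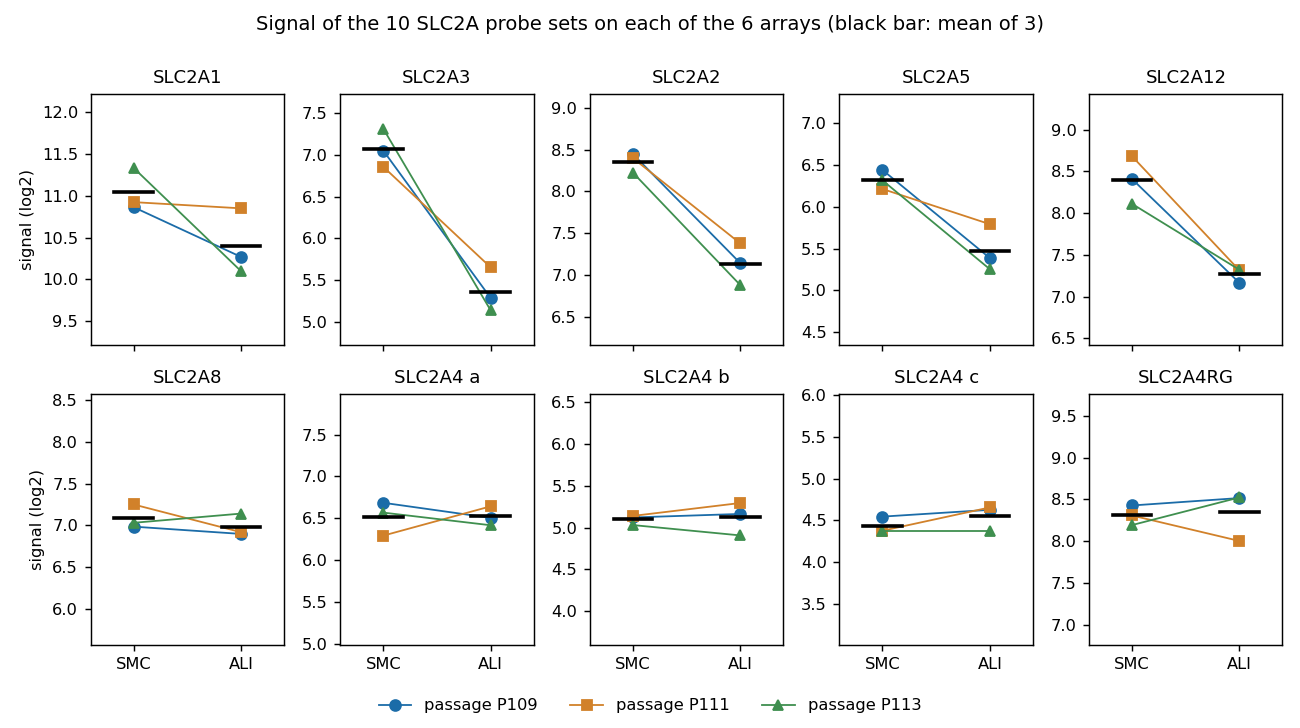
Log2 signal (y axis) of the 10 SLC2A probe sets on the 3 SMC and 3 ALI arrays, each panel spanning the same number of log2 units. Lines join the arrays of a passage and black bars are means of 3 arrays. SLC2A4 a, b and c are its 3 probe sets in the order of their mean. The lines of SLC2A3, SLC2A2, SLC2A5 and SLC2A12 fall from SMC to ALI at every passage, while those of SLC2A8, SLC2A4 a, SLC2A4 b and SLC2A4RG run in both directions and none of SLC2A4 c falls.

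SLC2A3 encodes GLUT3, a transporter of high affinity for glucose that is best known from neurons. Its probe set gave log2 signals of 5.29, 5.65 and 5.14 on ALI arrays 1 to 3, and of 7.05, 6.86 and 7.31 on SMC arrays 1 to 3. The groups were separated by 1.20 log2 units, the widest gap among the SLC2A probe sets. ALI cells had a mean of 5.36 ± 0.265 and SMC cells one of 7.07 ± 0.228 (SD over 3 arrays each), and the log2 fold change was -1.72 with a 95% interval of -2.10 to -1.33 and a standard error of 0.17 (limma, adjusted p = 0.00393). Ranked within each array, the probe set stood at percentiles 33.9 to 40.1 of all probe sets in ALI and at 56.1 to 62.1 in SMC cells. The ALI signals were thus above the lowest 25% of the array but, without detection calls, were not shown to be above background, so that the fold change is no exact size.

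SLC2A1 encodes GLUT1, the transporter of basal glucose uptake in most cell types. Its probe set gave log2 signals of 10.27, 10.85 and 10.10 in ALI cells and of 10.86, 10.92 and 11.33 in SMC cells, all within the highest 10% of each array (percentiles 92.0 to 97.0). Every ALI array was below every SMC array, but ALI replicate 2 was only 0.01 log2 units below the lowest SMC array. The log2 fold change was -0.64 (standard error 0.21, 95% interval -1.12 to -0.15, adjusted p = 0.208 from limma). The interval covers a decrease of 1.11- to 2.17-fold before adjustment for the number of probe sets. By quantitative PCR, the authors found no significant regulation of GLUT1 mRNA, at a level slightly above that of SMC. With 1 array left out at a time, the adjusted p of SLC2A1 ran from 0.0675, without ALI replicate 2, to 0.462, without ALI replicate 1.

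**Figure D2:**
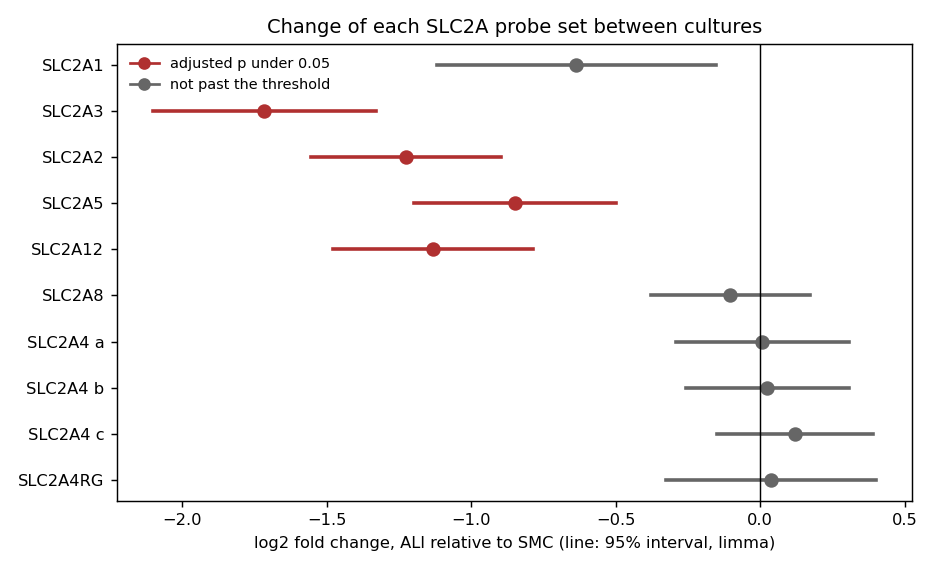
Log2 fold change of ALI relative to SMC cells (x axis) for each SLC2A probe set, with its 95% interval from limma over 3 against 3 arrays. The 4 probe sets past the threshold, in red, lie between -1.72 and -0.85, the interval of SLC2A1 ends at -0.15, and the intervals of SLC2A4, SLC2A8 and SLC2A4RG include 0.

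SLC2A2 and SLC2A5, the GLUT genes of intestinal sugar absorption, were both called as lower. SLC2A2 encodes GLUT2, a transporter of low affinity in the basolateral membrane of enterocytes and in liver cells. Its log2 signals were 7.14, 7.38 and 6.88 on the ALI arrays against 8.45, 8.40 and 8.22 on the SMC arrays. The lowest SMC array was 0.85 log2 units above the highest ALI array, and the SMC values lay within a narrower range than the ALI values. ALI cells had a mean of 7.13 ± 0.250 and SMC cells one of 8.36 ± 0.117 (SD over 3 arrays each). The log2 fold change was -1.22 with a 95% interval of -1.55 to -0.90 and a standard error of 0.14 (limma, adjusted p = 0.00759). Whichever of the 6 arrays was left out, SLC2A2 and SLC2A3 remained past the threshold (adjusted p up to 0.0489 and 0.0314).

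SLC2A5 encodes GLUT5, which carries fructose and hardly any glucose. The log2 signals of its probe set were 5.39, 5.79 and 5.25 in ALI cells and 6.44, 6.21 and 6.32 in SMC cells. The groups were 0.42 log2 units apart, the ALI arrays stood at percentiles 35.6 to 42.2 and the SMC arrays at 48.1 to 51.2. The log2 fold change was -0.85 (standard error 0.15, 95% interval -1.20 to -0.50, adjusted p = 0.0347 from limma), and its size is open to the same limit as that of SLC2A3, since the ALI signals were not shown to be above background. This call rested on the full set of arrays. It held without ALI replicate 2 (adjusted p = 0.0156) and was lost without ALI replicate 1 (0.14), ALI replicate 3 (0.0624), SMC replicate 1 (0.109), SMC replicate 2 (0.12) or SMC replicate 3 (0.0777), while the log2 fold change stayed between -1.0 and -0.73.

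SLC2A12 encodes GLUT12, a glucose transporter found in insulin-sensitive tissues and epithelia. Its log2 signals were 7.16, 7.31 and 7.32 in ALI cells and 8.41, 8.68 and 8.11 in SMC cells. The 3 ALI arrays lay close together, whereas the SMC arrays varied more, and the groups were 0.79 log2 units apart. The log2 fold change was -1.13 (standard error 0.15, 95% interval -1.48 to -0.79, adjusted p = 0.0125 from limma). The call was lost when ALI replicate 1 was left out (-1.08, adjusted p = 0.0696). In that case, 2 of the 10 SLC2A probe sets were called, in place of 4.

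**Figure D3:**
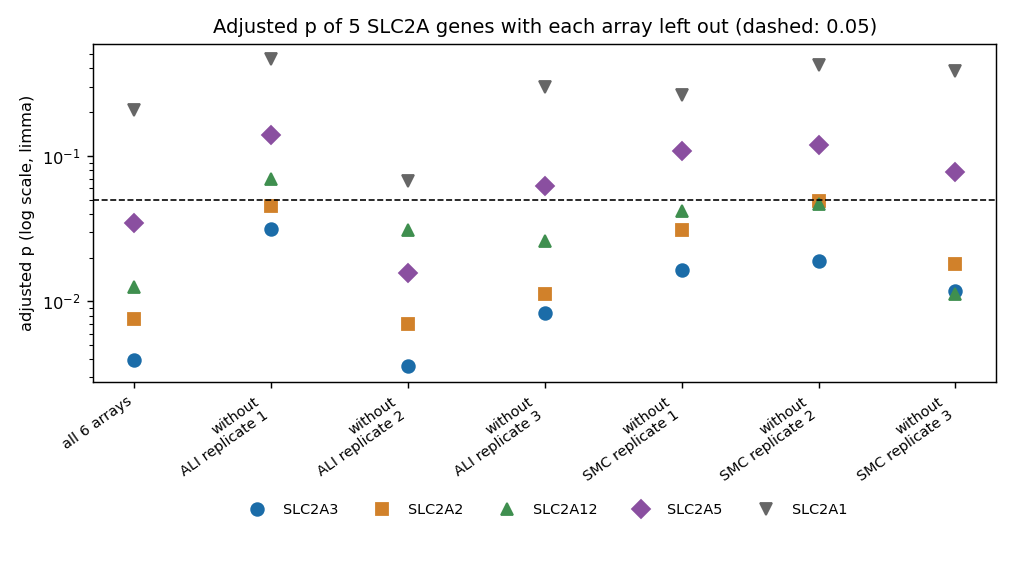
Adjusted p from limma (y axis, log scale) of SLC2A3, SLC2A2, SLC2A12, SLC2A5 and SLC2A1 with all 6 arrays and with each array left out in turn. The dashed line is 0.05. SLC2A3 and SLC2A2 stay under it in every case, SLC2A12 crosses it without ALI replicate 1, SLC2A5 is under it only with all arrays and without ALI replicate 2, and SLC2A1 stays above it throughout.

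The other members had log2 fold changes near 0. SLC2A4 encodes GLUT4, the insulin-responsive transporter of muscle and fat. Its brightest probe set had 6.50, 6.64 and 6.42 in ALI and 6.68, 6.29 and 6.57 in SMC cells, so that the groups overlapped, with a log2 fold change of 0.01 (95% interval -0.29 to 0.31, adjusted p = 0.99 from limma). The second had a log2 fold change of 0.02 (95% interval -0.26 to 0.31), which turned to -0.01 after quantile normalization. The third had one of 0.12 (95% interval -0.15 to 0.39) and was dim, at percentiles 22.5 to 25.6. SLC2A8, which encodes GLUT8, a transporter of intracellular membranes, had log2 signals of 6.90, 6.92 and 7.14 in ALI and 6.98, 7.25 and 7.03 in SMC cells, overlapping, with a log2 fold change of -0.10 (95% interval -0.38 to 0.17). SLC2A4RG had log2 signals from 8.0 to 8.52 in ALI and from 8.19 to 8.43 in SMC cells and a log2 fold change of 0.04 (95% interval -0.32 to 0.40). The lowest end of these 5 intervals was thus -0.38.

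Within passages, ALI was below SMC in all 3 passages for 18.5% of all probe sets and above it in all 3 for 22.7%. Of the 10 SLC2A probe sets, 5 had the same sign in all 3 passages, each of them lower. These were SLC2A1, SLC2A2, SLC2A3, SLC2A5 and SLC2A12. They were also the 5 whose groups did not overlap (19.6% of all probe sets were without overlap, 9.27% as lower), which by itself fixes the sign in every passage. The same 5 had at least 1.5-fold lower signal (2.74% of all probe sets). The difference for SLC2A3 was -1.77 at passage P109, -1.20 at passage P111 and -2.18 at passage P113. SLC2A1 had -0.60, -0.07 and -1.24, SLC2A2 had -1.31, -1.02 and -1.35, and SLC2A5 had -1.06, -0.42 and -1.06, in the same order of passages. In these 4 genes the difference was smallest at passage P111. SLC2A12 differed from them, with -1.24, -1.37 and -0.79 and the smallest difference at passage P113. Each of these values compares 1 array with 1 array and carries no error of its own. With the passage as a block in the model, the same 4 probe sets passed the test (adjusted p from 0.00131 to 0.0155, against 5.32% of all probe sets in either direction and 3.32% as lower), and SLC2A1 had an adjusted p of 0.117.

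**Figure D4:**
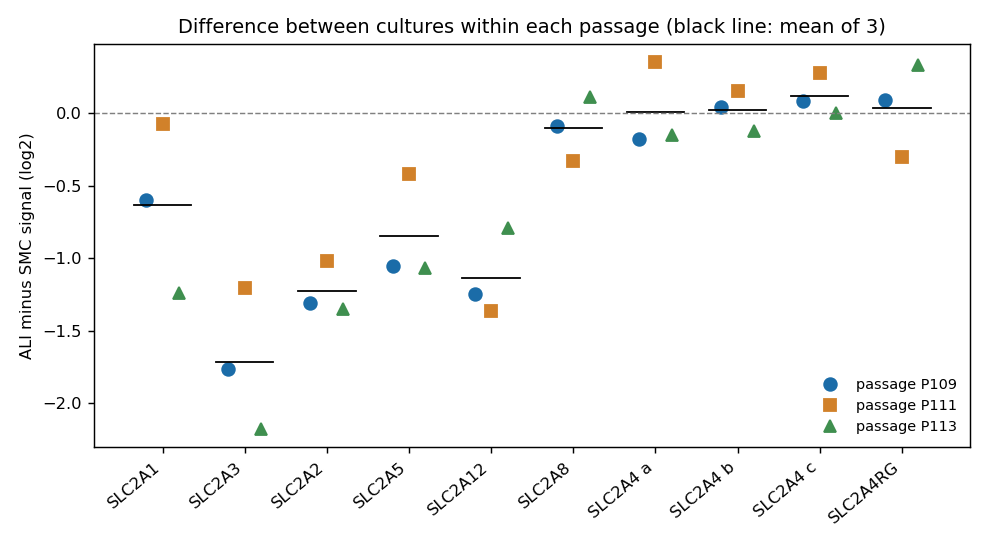
ALI minus SMC log2 signal (y axis) for each SLC2A probe set at passages P109, P111 and P113, 1 array per culture and passage. Black lines are means over passages. The values of SLC2A1, SLC2A3, SLC2A2, SLC2A5 and SLC2A12 are all below 0 and span from -2.18 to -0.07. Those of SLC2A8, SLC2A4 a, SLC2A4 b and SLC2A4RG lie on both sides of 0, and those of SLC2A4 c at or above 0.

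The members also shared an order among the ALI arrays, which was seen in the values and not asked for by the design. ALI replicate 2 was above replicate 1 and replicate 1 above replicate 3 in 7 of the 10 probe sets, namely SLC2A1, SLC2A2, SLC2A3, SLC2A5 and the 3 of SLC2A4, against 21.3% of all probe sets. For SLC2A1 the ALI arrays therefore ranged over 0.75 log2 units, and the SMC arrays over 0.47. The 3 probe sets of SLC2A4 are not independent of each other. SLC2A12, SLC2A8 and SLC2A4RG had other orders. The array-wide medians of ALI replicates 1, 2 and 3 were 6.37, 6.38 and 6.33.

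Other genes of sugar handling were taken from lists by role. Among all genes, 2.53% were called, 1.51% as lower and 1.02% as higher, and 406 of 6765 (6.0%) were called with the passage as a block. Of 8 measured genes of other sugar transporters, 1 was lower and none was higher, and their median log2 fold change was -0.17. The called gene was SLC50A1, the sugar efflux transporter SWEET1, at -0.68 (standard error 0.13, adjusted p = 0.0413 from limma), with 9.03, 8.76 and 9.01 in ALI and 9.62, 9.44 and 9.78 in SMC cells. Leaving out any 1 of the 6 arrays ended this call (adjusted p between 0.0602 and 0.119). SLC37A4, the glucose 6-phosphate carrier of the endoplasmic reticulum, had -0.56 (adjusted p = 0.452), with a difference of -1.27 at passage P111 against -0.19 and -0.22 at P109 and P113, and of -0.16 without ALI replicate 2. SLC5A1, which encodes SGLT1 and is named for its role, had log2 signals of 6.13, 6.28 and 6.59 in ALI and 6.59, 7.21 and 6.82 in SMC cells, and its log2 fold change was -0.54 (95% interval -0.96 to -0.12, adjusted p = 0.22). The groups of SLC5A1 did not overlap, but only by a small margin. SLC45A3, a proton-coupled sugar transporter, had 0.50 at its brightest probe set (adjusted p = 0.122) and passed the test with the passage as a block (0.0493). Its other probe sets had 0.46 and 0.17 (adjusted p = 0.0646 and 0.573 from limma).

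Of 10 measured enzymes that take up hexoses into metabolism, none was called, and their median log2 fold change was 0.07. The members farthest from 0 were MPI, the mannose 6-phosphate isomerase, at -1.05 (standard error 0.22, adjusted p = 0.057 from limma), and HK1, the hexokinase of most tissues, at -0.61 (standard error 0.16, adjusted p = 0.125). With the passage as a block, both passed the test as lower (adjusted p = 0.00513 and 0.0136). KHK, the fructokinase that acts on the sugar carried by GLUT5, had 0.34 (95% interval 0.06 to 0.63, adjusted p = 0.247), in the direction opposite to SLC2A5. None of 23 genes of GLUT trafficking and surface control was called either, with a median of 0.03. ARRDC4, an arrestin-like protein that lowers glucose uptake, had -0.66 (adjusted p = 0.101), and RAB14, a small GTPase of endosomes, had -0.47 (adjusted p = 0.12). Both passed with the passage as a block (0.0236 and 0.0449). The related TXNIP had -0.21 (adjusted p = 0.594).

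Of 13 measured transcription factors and regulators of GLUT genes, none passed the test at its brightest probe set, and their median log2 fold change was -0.08. HIF1A, the oxygen-regulated subunit of HIF-1, is named after its values were seen, since its 4 probe sets disagreed. The brightest had a log2 fold change of -0.15 (95% interval -0.42 to 0.12, adjusted p = 0.626 from limma). Another passed the test as lower, at -1.39 (standard error 0.26, adjusted p = 0.0407), with 5.03, 4.70 and 4.52 in ALI and 6.04, 5.65 and 6.75 in SMC cells, but held without only 1 of the 6 arrays (adjusted p between 0.0439 and 0.102). It stood at percentiles 24.7 to 54.8, and its ALI signals were not shown to be above background, so that -1.39 is no exact size. The remaining HIF1A probe sets had -0.39 and -0.02 (adjusted p = 0.366 and 0.972). FOXA2, a factor of endodermal epithelia that acts on the SLC2A2 gene, had 0.70 (standard error 0.14, adjusted p = 0.0514 from limma) and passed with the passage as a block (0.0146). Its second probe set, which was dimmer, had -0.19. EGLN1, the oxygen-dependent prolyl hydroxylase that marks HIF for degradation, had -0.68, and its other probe sets had -0.63 and -0.50 (adjusted p from 0.219 to 0.384). Of 8 genes of brush border and sodium pump, none was called (median -0.03), with VIL1, which encodes villin of the microvilli, at -0.45 (adjusted p = 0.332) and EZR, which encodes ezrin, at -0.29 (adjusted p = 0.24).

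**Figure D5:**
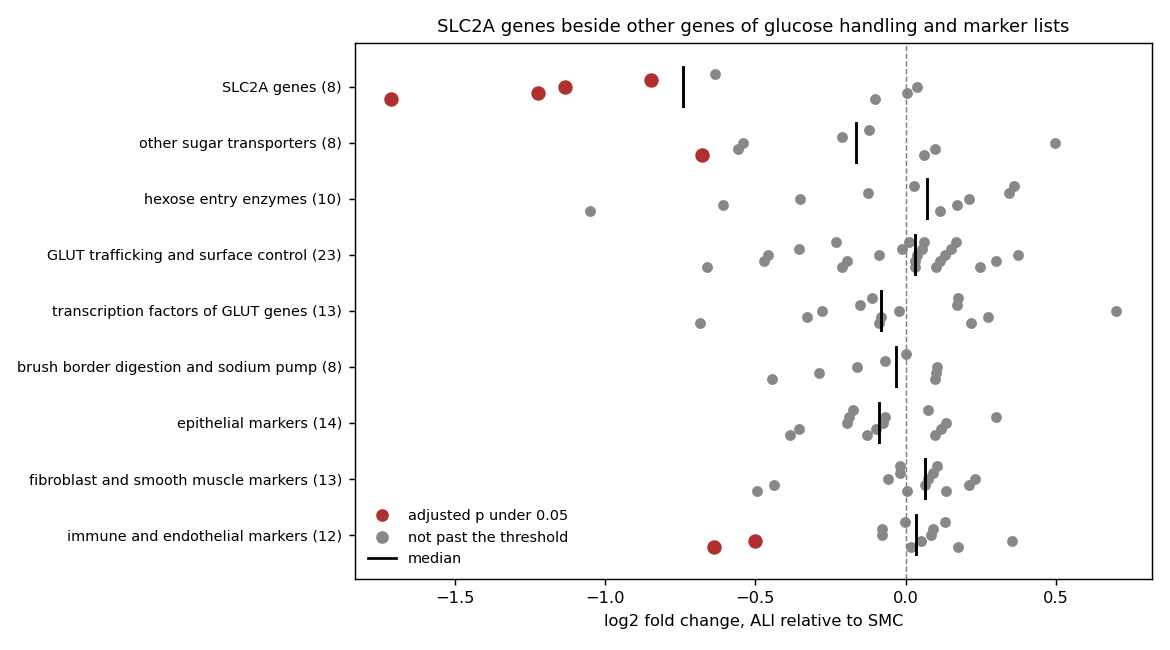
Log2 fold change of ALI relative to SMC cells (x axis) for the 8 SLC2A genes, 5 lists of sugar handling and 3 lists of cell markers, 1 point per gene at its brightest probe set. The number of measured genes is in brackets, red points passed the test and black bars are medians. The median is -0.74 for the SLC2A genes and between -0.17 and 0.07 for the other lists.

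Cell markers and RNA measures were set beside these values, since fewer cells of a type and less RNA per cell cannot be told apart in such bulk samples. None of the 14 epithelial and of 13 fibroblast and smooth muscle markers was called at its brightest probe set, with medians of -0.09 and 0.07. COL3A1 had 0.13 (adjusted p = 0.649 from limma), although the authors name it among the genes with a high positive fold change. Vimentin, which they found lower in ALI cells by quantitative PCR and western blot, was not in the list. The dimmer of 2 probe sets of CDH1, which encodes E-cadherin, passed as lower at -0.78 (adjusted p = 0.0412 from limma, and between 0.0488 and 0.157 with single arrays left out), whereas the brighter had -0.10 (adjusted p = 0.733). CDH1 and HIF1A held the only 2 called among the 68 further probe sets of all list genes. The members farthest from 0 were CLDN7 (-0.38) and ST14 (-0.36) among the epithelial markers, and PDGFRB (-0.50) and FN1 (-0.44) among the others. The mean log2 signal of the fibroblast and smooth muscle list was 6.41 to 6.57 on the ALI and 6.47 to 6.56 on the SMC arrays, with 6 of the 13 markers above the array median and LUM, DCN and CNN1 in the lowest 25% on every array. FN1 was among the highest signals of the arrays (mean 13.38), and TAGLN (10.15), PDGFRB (7.8) and COL1A2 (7.44) were above the median too. Of 12 immune and endothelial markers, AIF1 and PECAM1 were lower in ALI cells at -0.64 and -0.50 (adjusted p = 0.025 and 0.0448 from limma). With single arrays left out, the call of AIF1 held in 1 of 6 cases (adjusted p between 0.0483 and 0.123) and that of PECAM1 in none (between 0.0792 and 0.149). The mean log2 signal of this list was 5.43 to 5.57 on the ALI and 5.47 to 5.59 on the SMC arrays, with AIF1 (mean 10.82), PECAM1 (7.39) and CD34 (6.94) above the array median and 3 of the 12, PTPRC, KDR and CDH5, in the lowest 25% on every array. The gap between the 3′ and 5′ control probe sets, a measure of RNA integrity, differed by transcript. For actin it was 2.74, 2.86 and 3.18 log2 units in ALI and 2.24, 2.39 and 2.32 in SMC cells, and for 1 of 2 GAPDH pairs 1.42, 1.37 and 1.70 against 0.56, 0.55 and 0.67, whereas for EF1A (means 0.39 and 0.31) and the other GAPDH pair (0.32 and 0.32) the groups overlapped. ALI replicate 3, the lowest ALI array for SLC2A1, SLC2A2, SLC2A3 and SLC2A5, had the widest gap of the 6 arrays for actin, for the first GAPDH pair and for EF1A (0.52). For the other GAPDH pair it had 0.36, below the 0.39 of ALI replicate 1. The part of these measures in the SLC2A values was not tested.

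The genes whose profile over the 6 arrays was nearest to a member were found by the root mean square difference of log2 signals, each gene centred on its own mean. The measure was used for the 3 members with a mean above the array median and a span of at least 1 log2 unit. Nearest to SLC2A1 were XPO1, a nuclear export receptor, ISG12(A) and KDELR3, a receptor for proteins of the endoplasmic reticulum, at 0.11, 0.18 and 0.19 log2 units, where the median over 6764 genes was 0.46. The probe set of XPO1 was dim, with mean log2 signals of 4.44 in ALI and 5.24 in SMC cells, and was not shown to be above background. Nearest to SLC2A2 were CEACAM16, LGALS1, which encodes galectin-1, and IFIT3, an interferon-induced gene, at 0.13, 0.14 and 0.15 (median 0.65). CEACAM16 had low mean log2 signals too, 5.15 in ALI and 6.21 in SMC cells, and was not shown to be above background. Nearest to SLC2A12 were ACSS2, which makes acetyl-CoA from acetate, IFIT3 again and ANKRD1 at 0.09, 0.12 and 0.14 (median 0.61). These likenesses describe 6 arrays and carry no test.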

How the data were processed

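Total RNA of IPEC-1 cells was hybridized to GeneChip Porcine Genome Arrays. According to the methods, the authors processed the arrays with GCOS (version 1.1.1 in the submitters' processing notes), checked them with arrayQualityMetrics and normalized them by GC-RMA. The deposited table holds log2 values of 1 column per array and names no normalization. Array medians were 6.33 to 6.38. The values were not scaled again, and no depth exists for arrays, whose number limits the precision. After 124 control probe sets were left out, a linear model with culture type as factor was fitted to the other 23999 probe sets in R 4.3.3 (limma 3.58.1, lmFit followed by eBayes). Probe sets with a Benjamini-Hochberg adjusted p under 0.05 were called. The fit was tested on simulated data. Symbols came from the platform annotation: 10069 probe sets had 1 symbol, 198 several and 13732 none, and no gene was named from the latter 2 kinds. Where a gene had several probe sets, the one with the highest mean stood for it in lists. Groups came from the sample titles. The free-text label description names a liver sample and was not used.

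By the labels, every passage has an array of each culture. After subtraction of the group mean, the arrays that share a passage had correlations over probe sets of 0.34, 0.14 and 0.451 for P109, P111 and P113. Those of unlike passages ran from -0.424 to 0.219. The highest of them, ALI replicate 2 with SMC replicate 1, was above the P111 pair, so the values do not bear out that pair. The passage numbers of the labels were taken as pairs, and the fit with passage as a block is given where it changes a call. The alternatives were this block, filters that kept probe sets with a mean over 4 or over 6, quantile normalization and an intensity trend. Further ones were probe sets averaged per gene, each array left out, and an equal-variance t-test. The methods name a t-test but not its form. With 3 arrays a group, the smallest p of an exact permutation test is 0.1, and none was run.

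Members and lists were chosen with earlier results of these data known. Named are all members, the called genes of each list or, with none or 1 called, the 2 farthest from 0, the 3 genes nearest to a member, and, for their role and after their values were seen, SLC5A1, SLC45A3, KHK and TXNIP. HIF1A and CDH1 were added for a called probe set, COL3A1 and vimentin for what the authors reported, and further markers for their level only. No sequence is shown and no genome coordinates are given, as the deposited data name no build. The assembly named above is that of the RefSeq gene list only.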

Additional observations from a re-analysis of the deposited data

How the results depend on the processing

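The number of arrays limits what can be told of the SLC2A genes. SLC2A3 and SLC2A2 kept their calls under all alternatives other than the adjusted t-test. With single arrays left out, SLC2A12 kept its call in 5 of 6 cases and SLC2A5 in 1 of 6. Without ALI replicate 1, where SLC2A12 lost its call, the calls over all probe sets also fell from 455 to 119. Quantile normalization, the intensity trend, a mean over 4 and the passage block each left 4 SLC2A probe sets called, and a mean over 6 left 3, as SLC2A5 was then not tested. The equal-variance t-test called 0 of the 10 after Benjamini-Hochberg adjustment and 0 of all probe sets. SLC2A3 was at -1.72, SLC2A2 at -1.22, SLC2A12 at -1.13 and SLC2A5 at -0.85 (adjusted p from 0.171 to 0.259 from this t-test). At an unadjusted p under 0.05, the t-test called 4 and 2891, where limma had 5 and 3440. The authors reported significantly regulated genes in both directions, so this t-test did not reproduce their counts. All called probe sets numbered 455 in the main fit and 1276 with the passage as a replicate block. With single arrays left out, they numbered 119 to 432, the SLC2A probe sets 2 to 4, SLC2A5 ran from -1.0 to -0.73 and SLC2A12 from -1.28 to -0.99. The probe sets near 0 changed sign: the second probe set of SLC2A4 was -0.013 after quantile normalization and -0.062 to 0.13 with single arrays left out, the brightest of SLC2A4 -0.11 to 0.091 and SLC2A4RG -0.050 to 0.21. With the block by passage, 2 other sugar transporters, 2 hexose enzymes, 2 trafficking genes and 1 transcription factor were called, in place of 1, 0, 0 and 0, where 406 of all 6765 genes (6.0%) were called. The factor, FOXA2, was also called above a mean of 6, after quantile normalization and with the intensity trend (1 each). The unadjusted t-test called 2, 4, 4 and 2 in these lists, 1 of brush border and pump and 1 fibroblast marker, and the adjusted t-test 0 other sugar transporters and 0 immune and endothelial markers. Immune and endothelial calls fell from 2 to 1 with quantile normalization, the intensity trend or the mean over probe sets, and to 0 to 1 with single arrays left out. Other sugar transporters then gave 0 to 0, hexose enzymes 0 to 1 and trafficking genes 0 to 1. For 28 genes outside the family, named by the rule or for their role and taken at their brightest probe set, 390 values under alternatives held 0 reversals, 35 lost and 28 gained calls. The cause of these changes was not tested.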
